A study of Homo sapiens with 26 samples.

Results

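The genes described here are 44 genes of the human centromere, kinetochore and spindle checkpoint, chosen by name from textbook knowledge of these structures. Earlier results of these data were known when they were chosen, so the choice was not blind to their values. All 44 were found among the 30331 named entries of the deposited table, 43 under their current symbol and CENPU under the older symbol MLF1IP. They were measured by bulk RNA sequencing in ZR751 tumors, grown under the skin of female NSG mice, which lack T, B and NK cells and keep myeloid cells. ZR751 is an established human breast cancer line that carries the estrogen receptor. Resistant tumors came from 5 mice given atirmociclib (PF-07220060), which inhibits CDK4, a kinase of the G1 phase, by mouth at 60 mg/kg, given again after 7 hours each day, for 84 to 91 days. Sensitive tumors came from 3 mice given the same dose for 3 days. Vehicle tumors came from 5 mice given vehicle for 3 days, with DMSO as their treatment label. Dosing began when tumors averaged 150 mm3, and tumors were taken 3 hours after the last dose. The tumors of all 3 groups came from the same cell line, and resistant tumors were treated in a study of their own with no vehicle mice among the samples used here, so treatment length, study and resistance cannot be told apart.

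The kinetochore is the protein structure on each centromere that grips the microtubules of the spindle. It is built in layers. Nucleosomes with the histone variant CENP-A mark the centromere, a constitutive network of CENP proteins sits on them, and the outer layer, centered on the Ndc80 complex, holds the microtubule. The spindle checkpoint is a signal from kinetochores not yet attached, which holds back the separation of chromosomes. Many of these genes are transcribed mainly in G2 and M phase, and cells held in G1 by a block of CDK4 make little of their RNA. A bulk sample cannot tell fewer dividing cells from less RNA per cell.

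Values are TPM, a gene's share of all transcripts with its length taken into account, averaged over the 2 libraries of a mouse, and mice are listed as 9-3, 9-6, 9-7, 9-8 and 9-9 for resistant, 6-4, 6-5 and 6-6 for sensitive, and 1-2, 1-4, 1-5, 1-6 and 1-9 for vehicle tumors. TPM keeps no read counts, so library depth is unknown and no counting error is given. The 2 libraries of a mouse differed by a median of 0.130 on the log2 scale over the 44 genes, and by at most 1.27. Luminal breast markers were high in every group, summing over 8 genes to 9629 to 12970 TPM in resistant tumors, 6597 to 8953 TPM in sensitive tumors and 7195 to 11230 TPM in vehicle tumors. The defining immune, endothelial, fibroblast and fat cell genes PTPRC, CD3E, CDH5, DCN and ADIPOQ were below 1 TPM in every mouse. Of these lists, the immune markers (PTPRC, CD3E and CD68) summed to 3.77 to 10.2 TPM in resistant tumors, 2.01 to 5.16 TPM in sensitive tumors and 1.65 to 3.32 TPM in vehicle tumors, nearly all of it CD68. The basal markers (KRT5, KRT14 and TP63) summed to 0.435 to 1.26 TPM in resistant tumors, 5.73 to 16.4 TPM in sensitive tumors and 1.35 to 8.74 TPM in vehicle tumors, and the part of other cells in the results was not tested. The endothelial markers (PECAM1, VWF and CDH5) summed to 0.270 to 0.645 TPM in resistant tumors, 0.190 to 0.300 TPM in sensitive tumors and 0.190 to 0.290 TPM in vehicle tumors, and ADIPOQ was at 0. The fibroblast markers (COL1A1, COL1A2, DCN and PDGFRB), nearly all COL1A1, summed to 4.40 to 9.88 TPM in resistant tumors, 5.70 to 8.06 TPM in sensitive tumors and 7.58 to 12.96 TPM in vehicle tumors. Host cells in these tumors are mouse cells, and the handling of mouse reads was not given in the sources used here. These marker values thus cannot show how much host tissue a tumor held.

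Kinetochore and checkpoint RNA was lower in both treated groups, and more so after 3 days than after 84 to 91 days. The median gene of the 44 stood at 45.3% of its vehicle mean in resistant tumors and at 22.5% in sensitive tumors. A gene was called at a limma adjusted p under 0.05 over all 14079 genes tested, and all 44 genes were tested. Changes are log2 differences of log2(TPM + 1) relative to the median change of all genes tested, which was -0.05 in resistant versus sensitive, -0.14 in resistant versus vehicle and -0.07 in sensitive versus vehicle tumors. Of the 44, 34 were higher and 0 lower in resistant versus sensitive tumors, where 9.56% of all genes tested were higher and 11.6% lower. Again 34 of 44 in resistant versus vehicle tumors were lower and 0 higher, against 32.5% lower and 11.5% higher among all genes. In sensitive versus vehicle tumors 41 of 44 were lower and 0 higher, against 12.6% lower and 3.16% higher among all genes. The comparisons share mice, so they are not independent of each other.

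**Figure D1:**
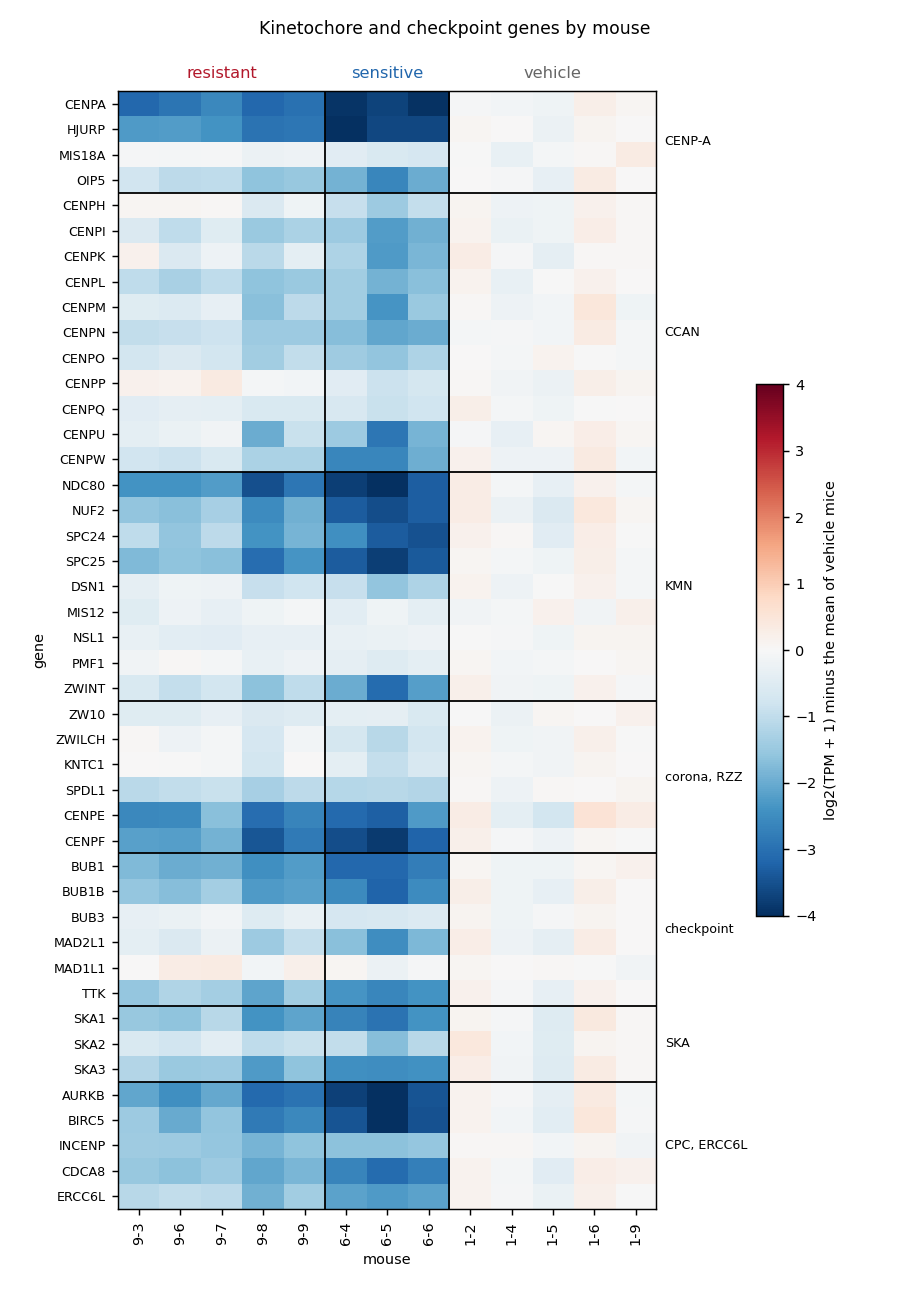
Heat map of log2(TPM + 1) minus the mean of the vehicle mice for the 44 genes (rows, grouped by role with black lines; CCAN, constitutive centromere network; KMN, outer kinetochore; RZZ, ROD-ZW10-Zwilch complex; CPC, chromosomal passenger complex) in 5 resistant, 3 sensitive and 5 vehicle mice (columns). Blue is below and red above the vehicle mean; CENPA, HJURP, NDC80 and AURKB are deep blue in both treated groups, and MAD1L1, MIS12 and NSL1 are pale throughout.

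The promoters of 6 genes are shown as examples of the letters that were counted around gene starts. In human cells many genes of G2 and M phase carry a cell cycle homology region (CHR, TTTGAA or TTTAAA) near their start, bound by the MuvB core in repressor and activator complexes, often with CCAAT boxes, bound by NF-Y, upstream of it. RefSeq promoter windows (GRCh38.p14), from 250 bases before to 50 bases after the start, were given for 36 of the 44 genes and searched on both strands. At least 1 CHR was found in 19 of 36 genes (52.8%), against 27.9% of the 27305 genes with a window. CCAAT was found in 25 (69.4%), against 39.7% of all, and an E2F-like element (TTCCCGCC or TTTGGCGC) in 7 (19.4%), against 4.55%. Both CHR and CCAAT were in 12 genes (33.3%), against 11.2% of all. In sensitive versus vehicle tumors the median change was -2.61 over the 19 genes with CHR letters and -1.18 over the 17 without, and in resistant versus vehicle tumors it was -1.58 and -0.36. The medians were closer in resistant versus sensitive tumors, 0.97 with and 0.83 without. The split by CCAAT ran the other way in the comparisons with vehicle, with medians of -1.99 over the 25 genes with it and -2.37 over the 11 without in sensitive versus vehicle tumors, and -0.94 and -1.46 in resistant versus vehicle tumors. For the E2F-like letters the medians lay close in sensitive versus vehicle tumors, -2.11 over the 7 genes with them and -1.99 over the 29 without. These are counts of letters in a window, given as a description with no test.
Below are the 150 bases before and the first 10 bases of 6 windows, 5′ to 3′ along the gene, with CHR, CCAAT (or its reverse ATTGG) and E2F-like letters in capitals; CDCA8 and INCENP encode members of the passenger complex. CENPA, CDCA8, BUB1B and INCENP hold CHR letters within 30 bases before the start, as 9 of the 36 genes do. MAD1L1 and NSL1, not called in sensitive versus vehicle tumors, hold no such letters in their whole window. Neither does DSN1, which fell there by 1.18, and MIS12, also not called, holds CCAAT and E2F-like letters. The window of CENPI, which fell there by 1.79, holds none either. However, it begins at 101100808 on chromosome X, inside the gene, which starts at 101098218 in GENCODE 29, so it may not show the promoter. Windows of other genes also lie inside the gene as GENCODE 29 places it, and they too may not show the promoter. Among them are those of CENPA, NUF2, SPC25, MAD1L1, AURKB, CENPN, CENPO and ZWILCH. On the minus strand, the window of SPC25 ends at 168890680 and its gene at 168913371. For MAD1L1 the window ends at 2233195 and the gene at 2233243. The 6 shown were chosen after their values were seen, and in CDCA8 a CHR and a reverse CCAAT share a base. Gene by gene, the letters and the falls did not run together. In sensitive versus vehicle tumors changes ran from -3.81 to -0.38 over the 19 genes with CHR letters. Over the 17 without they ran from -3.69 to 0.016. AURKB (-3.69), SPC24 (-3.01) and BUB1 (-2.95) hold no CHR letters, and ZW10 (-0.38) holds CHR, CCAAT and E2F-like letters.
CENPA, chr2:26785906-26786065, plus strand: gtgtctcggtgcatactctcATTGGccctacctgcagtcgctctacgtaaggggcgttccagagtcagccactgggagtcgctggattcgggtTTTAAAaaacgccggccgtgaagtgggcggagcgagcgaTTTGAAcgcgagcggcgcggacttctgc
CDCA8, chr1:37692366-37692525, plus strand: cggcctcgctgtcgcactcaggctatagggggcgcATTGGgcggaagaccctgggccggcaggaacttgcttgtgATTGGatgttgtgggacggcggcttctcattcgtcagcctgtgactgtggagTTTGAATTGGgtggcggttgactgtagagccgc
BUB1B, chr15:40160919-40161078, plus strand: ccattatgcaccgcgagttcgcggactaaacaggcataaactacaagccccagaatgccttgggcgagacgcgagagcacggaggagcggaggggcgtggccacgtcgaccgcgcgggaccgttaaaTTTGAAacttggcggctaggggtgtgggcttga
INCENP, chr11:62123861-62124020, plus strand: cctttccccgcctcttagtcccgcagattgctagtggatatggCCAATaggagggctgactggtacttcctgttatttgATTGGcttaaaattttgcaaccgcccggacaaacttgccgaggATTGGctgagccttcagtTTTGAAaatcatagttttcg
MAD1L1, chr7:2232936-2233095, minus strand: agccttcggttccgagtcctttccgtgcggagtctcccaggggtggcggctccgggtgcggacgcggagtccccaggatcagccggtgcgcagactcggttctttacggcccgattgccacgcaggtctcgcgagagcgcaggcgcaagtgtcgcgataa
NSL1, chr1:212791768-212791927, minus strand: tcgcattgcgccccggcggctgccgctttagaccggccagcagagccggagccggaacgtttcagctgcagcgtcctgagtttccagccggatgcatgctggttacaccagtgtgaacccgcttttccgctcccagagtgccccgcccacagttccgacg

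CENPA and HJURP of the genes for CENP-A and its loading had the largest changes of the 44 in sensitive versus vehicle tumors, an order that did not hold with library A alone or without some single mice. CENPA (chromosome 2, 26764289 to 26801067, plus strand, GRCh38) encodes the histone H3 variant that marks the centromere, and its window above holds CHR letters at 2 places. It had 1.37, 1.78, 2.48, 1.395 and 1.62 TPM in resistant tumors, 0.370, 0.600 and 0.360 TPM in sensitive tumors, and 19.3, 18.6, 17.6, 23.6 and 21.2 TPM in vehicle tumors. Every resistant mouse lay above every sensitive mouse and below every vehicle mouse, and the means stood at 8.64% of vehicle in resistant and 2.21% in sensitive tumors. CENPA rose by 0.97 ± 0.14 (adjusted p = 9.50e-04) in resistant versus sensitive tumors. It fell by 2.82 ± 0.12 (adjusted p = 6.85e-09) in resistant versus vehicle and fell by 3.81 ± 0.14 (adjusted p = 1.16e-09) in sensitive versus vehicle tumors. HJURP, the chaperone that places CENP-A on the centromere, had 3.48, 3.55, 3.04, 1.77 and 1.87 TPM in resistant tumors, 0.315, 0.71 and 0.705 TPM in sensitive tumors, and 21.8, 20.8, 17.1, 22.3 and 20.4 TPM in vehicle tumors. Its 3 groups did not overlap, and its means stood at 13.4% of vehicle in resistant and 2.82% in sensitive tumors. HJURP rose by 1.27 ± 0.18 (adjusted p = 7.39e-04) in resistant versus sensitive tumors. It fell by 2.42 ± 0.15 (adjusted p = 1.49e-07) in resistant versus vehicle and fell by 3.70 ± 0.18 (adjusted p = 9.29e-09) in sensitive versus vehicle tumors. OIP5 (Mis18β), a subunit of the Mis18 complex that primes the centromere for loading, averaged 4.00 ± 1.23 TPM in resistant tumors (SD, n = 5), 1.55 ± 0.613 TPM in sensitive tumors (SD, n = 3) and 10.3 ± 1.87 TPM in vehicle tumors (SD, n = 5). Its changes were 1.03, -1.07 and -2.11 in resistant versus sensitive, resistant versus vehicle and sensitive versus vehicle tumors, all called. The gene overlaps OIP5-AS1 on the other strand, listed at 13.1 to 26.8 TPM, and whether counting used strand was not given in the sources used here.

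MIS18A, the other Mis18 subunit of the list, moved far less. It had 12.3, 12.04, 12.2, 10.7 and 10.8 TPM in resistant tumors, 9.00, 7.99 and 7.62 TPM in sensitive tumors, and 12.5, 10.3, 11.9, 13.3 and 16.3 TPM in vehicle tumors. Resistant and vehicle mice overlapped, and both groups lay above the 3 sensitive mice. MIS18A fell by 0.50 ± 0.12 (adjusted p = 0.00589) in sensitive versus vehicle and rose by 0.50 ± 0.12 (adjusted p = 0.0185) in resistant versus sensitive tumors, a call that was lost without sensitive mouse 6-5 or 6-6 or with library A alone. Its change of 0.016 ± 0.11 (adjusted p = 0.369) in resistant versus vehicle tumors was not called, with a 95% interval of -0.21 to 0.24. The subunits of the Mis18 complex thus stood at 38.9% (OIP5) and 90.5% (MIS18A) of vehicle in resistant tumors.

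Of the constitutive network, which stays on CENP-A chromatin through the cell cycle, 11 genes were listed, and all 11 were lower in sensitive tumors. For 4 of them (CENPH, CENPK, CENPP and CENPU) resistant versus vehicle tumors gave no call. Network genes tested outside this list were not all called lower. In sensitive versus vehicle tumors CENPC, CENPT and ITGB3BP (CENP-R) were not called, with changes of -0.22, 0.22 and -0.13. CENPX was called lower there, with a change of -0.51. Over the 11 genes the median level was 57.1% of vehicle in resistant tumors and 25.4% in sensitive tumors. The deepest fall in sensitive tumors was that of CENPW, a histone-fold partner of CENP-T. CENPW had 20.4, 19.2, 22.9, 14.2 and 14.3 TPM in resistant tumors, 4.96, 5.03 and 8.51 TPM in sensitive tumors, and 39.9, 30.8, 30.9, 45.8 and 32.97 TPM in vehicle tumors. All resistant mice lay between the highest sensitive and the lowest vehicle mouse. CENPW rose by 1.47 ± 0.21 (adjusted p = 7.32e-04) in resistant versus sensitive tumors, fell by 0.85 ± 0.18 (adjusted p = 8.12e-04) in resistant versus vehicle and fell by 2.34 ± 0.21 (adjusted p = 2.12e-06) in sensitive versus vehicle tumors.

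CENPP, of the CENP-O group of the network, had the smallest change of the 11 in sensitive versus vehicle tumors with a pseudocount of 1 (CENPQ with 0.1) and was the only one whose resistant mean was above the vehicle mean. It had 3.67, 3.61, 4.29, 2.90 and 2.85 TPM in resistant tumors, 2.02, 1.27 and 1.54 TPM in sensitive tumors, and 3.27, 2.72, 2.55, 3.83 and 3.46 TPM in vehicle tumors. The lowest resistant mouse stood above the highest sensitive one, and resistant and vehicle mice overlapped. CENPP fell by 0.62 ± 0.15 (adjusted p = 0.00680) in sensitive versus vehicle tumors, a call lost without mouse 6-5 or with library A alone. It rose by 0.83 ± 0.15 (adjusted p = 0.00333) in resistant versus sensitive tumors, a call also lost with library A alone, and its change of 0.23 ± 0.13 (adjusted p = 0.586) in resistant versus vehicle tumors was not called. CENPP overlaps several other genes on chromosome 9, among them NOL8 and IPPK on the other strand.

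CENPH and CENPK, subunits of the CENP-H/I/K/M group that bridges chromatin and the outer layer, had the same calls as CENPP. CENPH had 34.0, 33.7, 33.5, 21.2 and 28.6 TPM in resistant tumors, 16.4, 11.2 and 16.2 TPM in sensitive tumors, and 34.9, 28.1, 28.6, 36.7 and 33.6 TPM in vehicle tumors. All resistant mice but 9-8 lay inside the vehicle range, and all 5 were above the sensitive range. CENPH fell by 1.04 ± 0.16 (adjusted p = 3.44e-04) in sensitive versus vehicle and rose by 1.04 ± 0.16 (adjusted p = 0.00132) in resistant versus sensitive tumors, and was not called in resistant versus vehicle tumors, with a change of 0.026 ± 0.14 (adjusted p = 0.541). CENPK averaged 10.9 ± 3.64 TPM in resistant tumors (SD, n = 5), 3.66 ± 1.70 TPM in sensitive tumors (SD, n = 3) and 14.4 ± 2.47 TPM in vehicle tumors (SD, n = 5). It fell by 1.71 ± 0.26 (adjusted p = 3.22e-04) in sensitive versus vehicle tumors and rose by 1.4 ± 0.26 (adjusted p = 0.00323) in resistant versus sensitive tumors, and its change of -0.29 ± 0.22 (adjusted p = 0.135) in resistant versus vehicle tumors was not called.
CENPU, of the CENP-O group, had 21.8, 24.2, 26.2, 6.66 and 15.1 TPM in resistant tumors, 9.96, 3.09 and 7.28 TPM in sensitive tumors, and 27.9, 22.7, 30.9, 34.8 and 30.4 TPM in vehicle tumors. Its resistant mice ran over both other groups, with mouse 9-8 below the highest sensitive mouse and mice 9-6 and 9-7 inside the vehicle range. CENPU rose by 1.37 ± 0.37 (adjusted p = 0.0225) in resistant versus sensitive tumors, a call lost without mouse 6-5 or 9-6, and its change of -0.60 ± 0.32 (adjusted p = 0.0760) in resistant versus vehicle tumors was not called. CENPL and CENPQ stayed closer to the sensitive level. CENPL stood at 35.7% of vehicle in resistant and 25.4% in sensitive tumors, the lowest resistant level of the 11, and CENPQ at 65.4% and 50.3%. Their changes of 0.41 ± 0.17 (adjusted p = 0.141) and 0.35 ± 0.12 (adjusted p = 0.0865) in resistant versus sensitive tumors were not called. The remaining 4 genes, CENPI, CENPM, CENPN and CENPO, were called in resistant versus sensitive tumors and in both comparisons with vehicle, with levels of 42.8% (CENPN) to 57.1% (CENPM) of vehicle in resistant tumors and 17.9% (CENPI) to 33.4% (CENPO) in sensitive tumors. In the first comparison CENPI was not called without mouse 6-5 or 6-6, CENPM was not called in 7 of 24 alternative settings and CENPO in 8 of 24, leaving out mouse 6-5 among them. In resistant versus vehicle tumors CENPM was not called under either other scaling.

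The outer layer split by complex. The KMN network joins the Ndc80 complex, which binds the microtubule (NDC80, NUF2, SPC24, SPC25), to the Mis12 complex, which ties it to the inner layer (DSN1, MIS12, NSL1, PMF1). The 4 Ndc80 complex genes stood between 12.7% (NDC80) and 30.7% (SPC24) of vehicle in resistant tumors, and between 3.11% (SPC25) and 6.6% (NUF2) in sensitive tumors. The 4 Mis12 complex genes stood between 71.4% (DSN1) and 90.8% (PMF1) of vehicle in resistant tumors, and between 40.6% (DSN1) and 81.2% (NSL1) in sensitive tumors. The ranges of the complexes did not overlap in either treated group, and no test of the difference between complexes was made.

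NDC80 (chromosome 18, 2571511 to 2616635, plus strand) encodes the microtubule-binding subunit of the Ndc80 complex. It had 3.76, 3.82, 4.33, 1.22 and 2.37 TPM in resistant tumors, 0.840, 0.365 and 1.53 TPM in sensitive tumors, and 29.8, 22.8, 19.0, 27.1 and 22.9 TPM in vehicle tumors. Vehicle mice stood far above all treated mice, while resistant mouse 9-8 fell below sensitive mouse 6-6. NDC80 rose by 1.12 ± 0.27 (adjusted p = 0.0129) in resistant versus sensitive tumors, a call lost without mouse 6-5. It fell by 2.55 ± 0.23 (adjusted p = 2.33e-06) in resistant versus vehicle and fell by 3.69 ± 0.27 (adjusted p = 2.88e-07) in sensitive versus vehicle tumors. NUF2, its partner in the complex, and SPC24, which with SPC25 ties it to the Mis12 complex, had the largest rises in resistant versus sensitive tumors after BIRC5 with a pseudocount of 1. NUF2 had 10.3, 9.6, 12.4, 4.92 and 7.89 TPM in resistant tumors, 2.35, 1.89 and 2.43 TPM in sensitive tumors, and 40.7, 27.9, 21.4, 44.4 and 34.2 TPM in vehicle tumors. No resistant mouse overlapped either other group. NUF2 rose by 1.63 ± 0.25 (adjusted p = 0.00117) in resistant versus sensitive tumors. SPC24 had 6.61, 4.17, 6.43, 1.97 and 3.22 TPM in resistant tumors, 1.82, 0.530 and 0.385 TPM in sensitive tumors, and 16.4, 14.8, 10.2, 17.6 and 14.1 TPM in vehicle tumors. Vehicle mice stood above all treated mice, and resistant mouse 9-8 was close to sensitive mouse 6-4, above it in mean TPM and below it on the log2 scale. SPC24 rose by 1.54 ± 0.31 (adjusted p = 0.00552) in resistant versus sensitive tumors. SPC25 had a mean of 3.12 ± 1.45 TPM in resistant tumors (SD, n = 5), 0.483 ± 0.239 TPM in sensitive tumors (SD, n = 3) and 15.6 ± 1.86 TPM in vehicle tumors (SD, n = 5). SPC25 rose by 1.42 ± 0.27 (adjusted p = 0.00384) in resistant versus sensitive, a call lost with library B alone.

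MIS12 and NSL1 of the Mis12 complex were among the 3 genes not called in sensitive versus vehicle tumors. MIS12 had 9.78, 12.1, 10.9, 12.2 and 13.2 TPM in resistant tumors, 10.2, 12.2 and 10.3 TPM in sensitive tumors, and 12.6, 13.2, 15.9, 12.5 and 16.1 TPM in vehicle tumors. Resistant mice overlapped both other groups, and the highest sensitive mouse lay just below the lowest vehicle mouse. The changes of MIS12 were 0.12 ± 0.12 (adjusted p = 0.675) in resistant versus sensitive, -0.12 ± 0.10 (adjusted p = 0.0578) in resistant versus vehicle and -0.26 ± 0.12 (adjusted p = 0.0721) in sensitive versus vehicle tumors, none called as reported, though without mouse 1-2, 1-6 or 9-9 MIS12 was called lower in resistant versus vehicle tumors. NSL1 had 5.27, 4.75, 4.62, 5.11 and 5.13 TPM in resistant tumors, 5.28, 5.34 and 5.62 TPM in sensitive tumors, and 6.56, 6.44, 5.83, 7.24 and 7.25 TPM in vehicle tumors. Vehicle mice stood above the treated mice, and the highest resistant mouse was 0.01 TPM below the lowest sensitive one. NSL1 fell by 0.22 ± 0.083 (adjusted p = 0.00376) in resistant versus vehicle tumors, a call lost under median-of-ratios scaling, and its changes of -0.18 ± 0.10 (adjusted p = 0.0881) in sensitive versus vehicle and -0.057 ± 0.10 (adjusted p = 0.471) in resistant versus sensitive tumors were not called.

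PMF1 and DSN1, also of the Mis12 complex, fell in sensitive tumors. PMF1 had 106, 122, 112, 96.0 and 101 TPM in resistant tumors, 92.4, 81.8 and 90.2 TPM in sensitive tumors, and 125, 109.5, 112, 118 and 126 TPM in vehicle tumors. Resistant and vehicle mice overlapped, and both lay above the sensitive mice. PMF1 fell by 0.34 ± 0.081 (adjusted p = 0.00348) in sensitive versus vehicle tumors. It rose by 0.32 ± 0.081 (adjusted p = 0.0277) in resistant versus sensitive tumors, a call lost without mouse 6-4, 6-5, 6-6, 9-6 or 9-7 or with library A alone, and its change of -0.0043 ± 0.070 (adjusted p = 0.119) in resistant versus vehicle tumors was not called. PMF1 shares sequence with the readthrough gene PMF1-BGLAP, listed at 4.03 to 10.5 TPM, so its reads could be split between them. DSN1 fell by 1.18 ± 0.18 (adjusted p = 3.32e-04) in sensitive versus vehicle tumors and rose by 0.81 ± 0.18 (adjusted p = 0.0110) in resistant versus sensitive tumors, the second call lost without mouse 6-5. Its change in resistant versus vehicle tumors, -0.36 ± 0.16 (adjusted p = 0.0212), was called, but not under median-of-ratios scaling or quantile normalization, nor without resistant mouse 9-8 or 9-9. ZWINT, which links the KMN network to the corona, averaged 70.8 ± 17.8 TPM in resistant tumors (SD, n = 5), 26.2 ± 9.61 TPM in sensitive tumors (SD, n = 3) and 138 ± 16.5 TPM in vehicle tumors (SD, n = 5) and was called in all 3 comparisons.

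**Figure D2:**
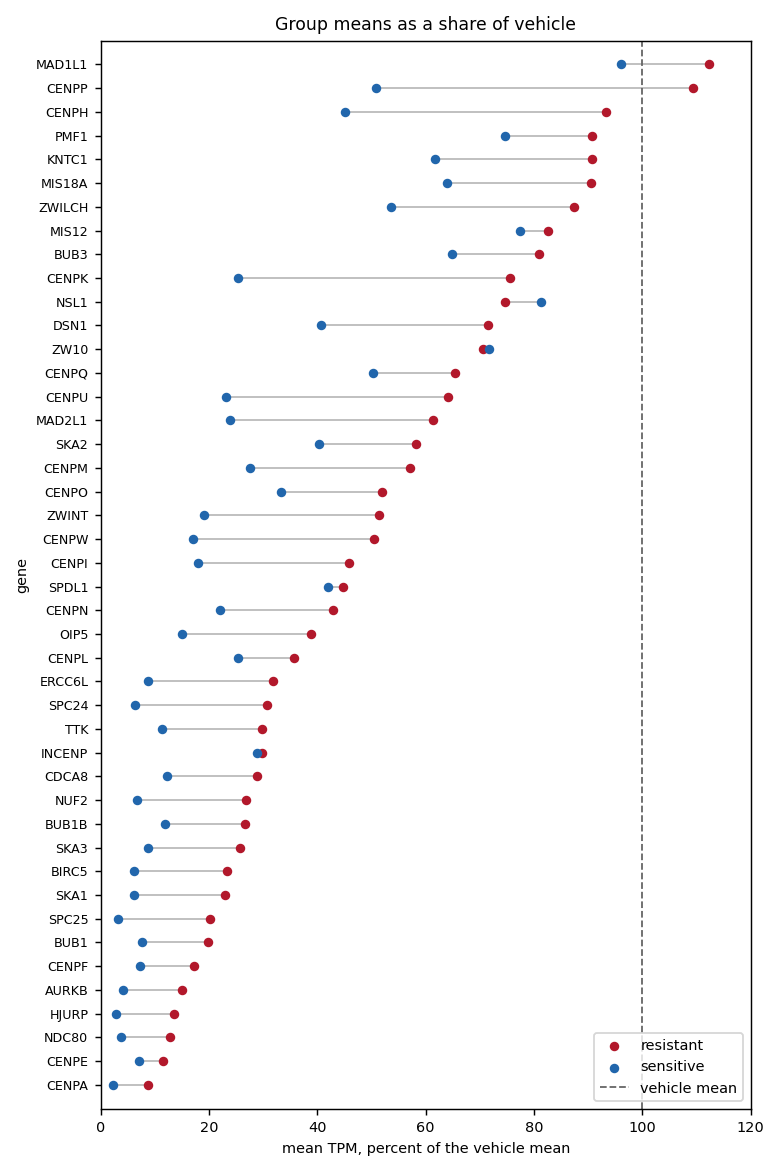
Mean TPM of each of the 44 genes in resistant (red) and sensitive (blue) tumors as a percent of the vehicle mean (dashed line at 100), ordered by the resistant level. The blue points have a median of 22.5% and the red points of 45.3%; red lies right of blue except for NSL1 and ZW10, and reaches the vehicle mean for CENPP and MAD1L1.

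The corona is the fibrous outer coat of kinetochores without microtubules, and its RZZ complex (ROD, encoded by KNTC1, with ZW10 and ZWILCH) brings in dynein and checkpoint proteins. CENPF and CENPE, the large proteins of the corona, fell most. CENPF, which binds microtubules and dynein regulators, had 11.4, 11.1, 14.0, 4.26 and 6.93 TPM in resistant tumors, 3.83, 2.98 and 5.05 TPM in sensitive tumors, and 63.6, 53.7, 47.4, 58.1 and 54.8 TPM in vehicle tumors. Vehicle mice stood above all treated mice, and resistant mouse 9-8 lay inside the sensitive range. CENPF rose by 1.05 ± 0.27 (adjusted p = 0.0194) in resistant versus sensitive, a call lost without mouse 6-4 or 6-5. It fell by 2.38 ± 0.24 (adjusted p = 4.58e-06) in resistant versus vehicle and fell by 3.45 ± 0.27 (adjusted p = 6.76e-07) in sensitive versus vehicle tumors. CENPE, the kinesin that carries chromosomes to the spindle equator, had 1.26, 1.32, 3.29, 0.645 and 1.21 TPM in resistant tumors, 0.595, 0.405 and 1.86 TPM in sensitive tumors, and 15.7, 9.39, 7.14, 19.0 and 15.8 TPM in vehicle tumors. Resistant mouse 9-7 and sensitive mouse 6-6 stood above the rest of the treated mice, and the treated groups overlapped, both below the vehicle mice. CENPE fell by 2.35 ± 0.27 (adjusted p = 1.86e-05) in resistant versus vehicle and fell by 2.81 ± 0.32 (adjusted p = 2.51e-05) in sensitive versus vehicle tumors. Its change of 0.44 ± 0.32 (adjusted p = 0.396) in resistant versus sensitive tumors was not called, with a 95% interval of -0.24 to 1.12.

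The RZZ genes moved less. ZW10 had 14.9, 14.8, 16.8, 14.0 and 14.6 TPM in resistant tumors, 16.00, 16.2 and 13.5 TPM in sensitive tumors, and 20.7, 18.01, 22.6, 21.3 and 23.7 TPM in vehicle tumors. Treated mice of both groups overlapped each other and lay below the vehicle mice. ZW10 fell by 0.34 ± 0.086 (adjusted p = 7.63e-04) in resistant versus vehicle and fell by 0.38 ± 0.10 (adjusted p = 0.00757) in sensitive versus vehicle tumors, the second call lost without mouse 6-6 or with library A alone. Its change in resistant versus sensitive tumors was 0.025 ± 0.10 (adjusted p = 0.904), with a 95% interval of -0.19 to 0.24. KNTC1 had 16.9, 16.5, 15.6, 9.67 and 16.9 TPM in resistant tumors, 12.4, 8.14 and 10.2 TPM in sensitive tumors, and 17.7, 15.5, 14.8, 18.1 and 16.9 TPM in vehicle tumors. Resistant mouse 9-8 lay inside the sensitive range, and the other resistant mice inside the vehicle range. KNTC1 fell by 0.59 ± 0.17 (adjusted p = 0.0170) in sensitive versus vehicle tumors, not called without mouse 6-5 or 6-6. It rose by 0.55 ± 0.17 (adjusted p = 0.0445) in resistant versus sensitive tumors, a call that 12 of 24 alternative settings did not make. ZWILCH stood at 87.3% of vehicle in resistant tumors and 53.5% in sensitive tumors, was higher in resistant versus sensitive tumors except without mouse 6-5, and like KNTC1 was not called in resistant versus vehicle tumors (-0.062 ± 0.14 (adjusted p = 0.248) for ZWILCH, -0.017 ± 0.14 (adjusted p = 0.406) for KNTC1).

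SPDL1 (Spindly), the adaptor that RZZ uses to recruit dynein, had 7.61, 8.14, 8.65, 6.15 and 7.69 TPM in resistant tumors, 7.25, 7.39 and 6.94 TPM in sensitive tumors, and 17.5, 14.6, 17.8, 17.3 and 18.4 TPM in vehicle tumors. The treated groups overlapped each other and lay below the vehicle mice. SPDL1 fell by 0.94 ± 0.093 (adjusted p = 2.47e-06) in resistant versus vehicle and fell by 1.07 ± 0.11 (adjusted p = 4.78e-06) in sensitive versus vehicle tumors. Its change in resistant versus sensitive tumors, 0.12 ± 0.11 (adjusted p = 0.676), was not called and its 95% interval was -0.11 to 0.35.

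Among the checkpoint genes, the kinases fell in both treated groups and MAD1L1 was called in no comparison. BUB1, a kinase that marks the inner centromere and gathers checkpoint proteins, had 4.57, 3.78, 4.03, 2.47 and 3.08 TPM in resistant tumors, 1.16, 1.16 and 1.78 TPM in sensitive tumors, and 19.3, 15.9, 15.9, 19.1 and 20.7 TPM in vehicle tumors. The 3 groups did not overlap. BUB1 rose by 0.99 ± 0.16 (adjusted p = 0.00166) in resistant versus sensitive, fell by 1.94 ± 0.14 (adjusted p = 2.79e-07) in resistant versus vehicle and fell by 2.95 ± 0.16 (adjusted p = 1.97e-08) in sensitive versus vehicle tumors. BUB1B, which encodes BubR1, the inhibitor of the anaphase-promoting complex, had 8.68, 7.66, 9.99, 4.80 and 5.30 TPM in resistant tumors, 3.81, 2.04 and 3.87 TPM in sensitive tumors, and 32.0, 24.1, 21.4, 32.3 and 27.6 TPM in vehicle tumors. Its groups did not overlap either. BUB1B rose by 1.00 ± 0.22 (adjusted p = 0.0104) in resistant versus sensitive, a call lost without mouse 6-5. It fell by 1.67 ± 0.19 (adjusted p = 1.50e-05) in resistant versus vehicle and fell by 2.69 ± 0.22 (adjusted p = 1.14e-06) in sensitive versus vehicle tumors. BUB1B shares sequence with the readthrough gene BUB1B-PAK6, which was not found under that name among the named entries.

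TTK, the Mps1 kinase that starts checkpoint signaling, had 3.35, 4.45, 3.90, 1.895 and 3.85 TPM in resistant tumors, 1.44, 1.07 and 1.43 TPM in sensitive tumors, and 13.3, 11.1, 9.02, 13.3 and 11.9 TPM in vehicle tumors. Its 3 groups were apart, with resistant mouse 9-8 nearest to the sensitive mice. TTK rose by 0.98 ± 0.19 (adjusted p = 0.00444) in resistant versus sensitive, fell by 1.39 ± 0.16 (adjusted p = 1.31e-05) in resistant versus vehicle and fell by 2.38 ± 0.19 (adjusted p = 5.64e-07) in sensitive versus vehicle tumors. MAD2L1 encodes Mad2, which captures the activator of the anaphase-promoting complex. It had 31.8, 28.0, 35.1, 14.5 and 21.4 TPM in resistant tumors, 12.4, 6.67 and 11.5 TPM in sensitive tumors, and 50.7, 36.3, 32.2, 51.6 and 42.2 TPM in vehicle tumors. Resistant mice lay above the sensitive mice, and mouse 9-7 lay above the lowest vehicle mouse. MAD2L1 rose by 1.31 ± 0.26 (adjusted p = 0.00515) in resistant versus sensitive and fell by 1.91 ± 0.26 (adjusted p = 1.37e-04) in sensitive versus vehicle tumors. MAD2L1 also fell by 0.59 ± 0.23 (adjusted p = 0.0188) in resistant versus vehicle tumors, a call lost under median-of-ratios scaling and under quantile normalization.

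MAD1L1 encodes Mad1, the protein that anchors Mad2 at kinetochores and nuclear pores. It had 18.9, 23.2, 23.6, 17.1 and 21.7 TPM in resistant tumors, 19.8, 15.7 and 18.2 TPM in sensitive tumors, and 19.7, 18.9, 19.2, 18.4 and 16.9 TPM in vehicle tumors. The 3 groups overlapped. The change of 0.016 ± 0.11 (adjusted p = 0.769) in sensitive versus vehicle tumors had a 95% interval of -0.22 to 0.25, and its sign turned with several settings. The change of 0.29 ± 0.10 (adjusted p = 0.215) in resistant versus vehicle tumors was not called, but it was called higher under median-of-ratios scaling and under quantile normalization (0.29 and 0.35). BUB3, which carries BUB1 and BubR1 to kinetochores and has other roles in interphase, averaged 108 ± 10.8 TPM in resistant tumors (SD, n = 5), 86.8 ± 3.79 TPM in sensitive tumors (SD, n = 3) and 134 ± 10.6 TPM in vehicle tumors (SD, n = 5). It rose by 0.36 ± 0.088 (adjusted p = 0.0235) in resistant versus sensitive tumors, lost without mouse 6-4 or 6-5, and fell by 0.55 ± 0.088 (adjusted p = 2.84e-04) in sensitive versus vehicle tumors. Its fall in resistant versus vehicle tumors, -0.17 ± 0.076 (adjusted p = 0.00542), was not called under either of the other scalings.

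**Figure D3:**
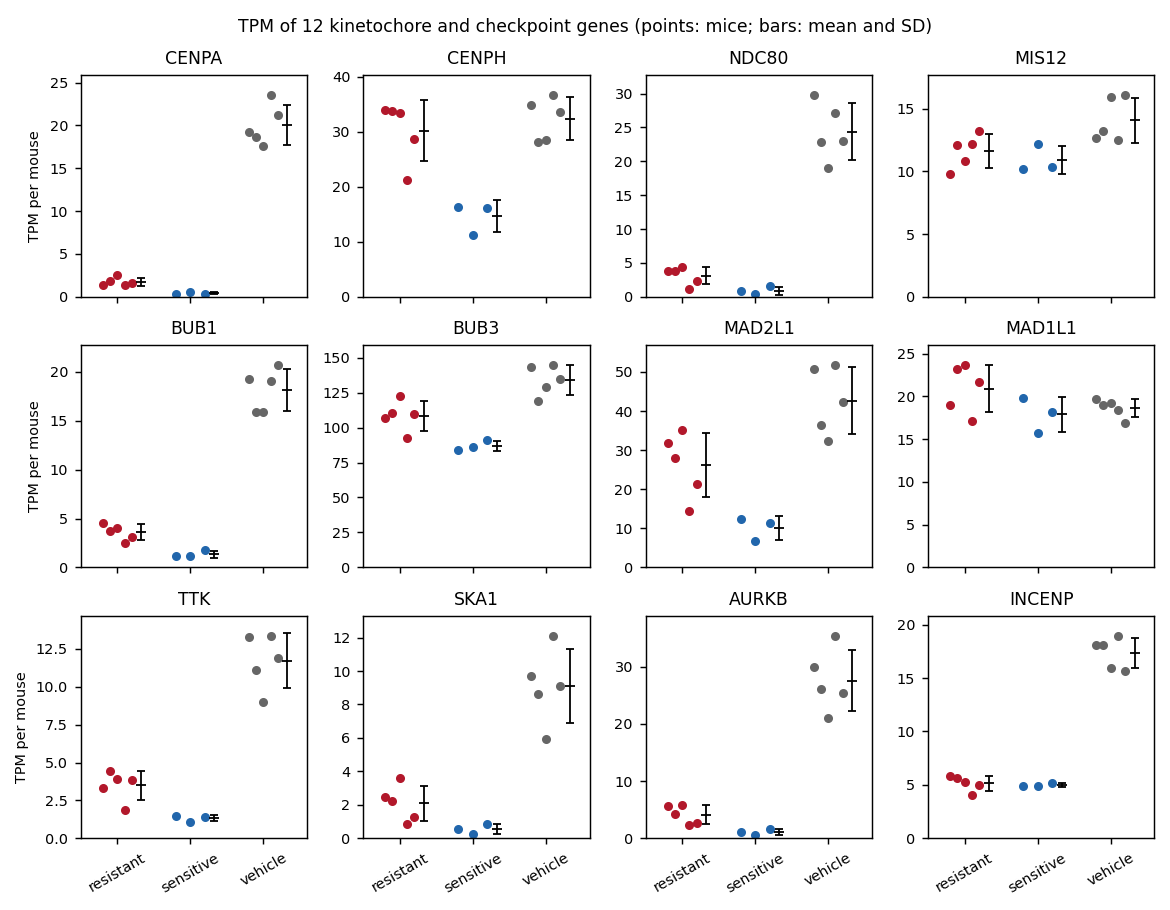
TPM of 12 genes by mouse (points) in resistant, sensitive and vehicle tumors, with the mean and SD of each group as black bars; each panel has its own axis from 0. CENPA, NDC80, BUB1, TTK, SKA1 and AURKB are far below vehicle in both treated groups, CENPH lies in the vehicle range in all resistant mice but 9-8, INCENP is at about 5 TPM in both treated groups, MAD1L1 overlaps across all groups, and MIS12 overlaps between resistant mice and both other groups.

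The SKA complex strengthens the grip of Ndc80 on the microtubule. SKA1 had 2.44, 2.21, 3.58, 0.870 and 1.29 TPM in resistant tumors, 0.535, 0.275 and 0.875 TPM in sensitive tumors, and 9.69, 8.62, 5.92, 12.1 and 9.12 TPM in vehicle tumors. Vehicle mice were above all treated mice, and resistant mouse 9-8 was just below the highest sensitive mouse. SKA1 rose by 0.97 ± 0.27 (adjusted p = 0.0256) in resistant versus sensitive tumors, not called without mouse 6-4, 6-5, 9-3 or 9-6. It fell by 1.62 ± 0.23 (adjusted p = 6.68e-05) in resistant versus vehicle and fell by 2.61 ± 0.27 (adjusted p = 8.73e-06) in sensitive versus vehicle tumors. SKA2 had 22.9, 20.2, 26.2, 16.9 and 18.5 TPM in resistant tumors, 17.5, 10.2 and 15.8 TPM in sensitive tumors, and 47.9, 32.8, 24.8, 37.8 and 36.7 TPM in vehicle tumors. It was the most abundant and the least changed of the 3, and its resistant mice overlapped both other groups. SKA2 fell by 0.60 ± 0.17 (adjusted p = 0.00418) in resistant versus vehicle and fell by 1.18 ± 0.20 (adjusted p = 8.15e-04) in sensitive versus vehicle tumors, and its change of 0.56 ± 0.20 (adjusted p = 0.0824) in resistant versus sensitive tumors was not called. SKA3 stood at 25.8% of vehicle in resistant and 8.68% in sensitive tumors and was called in all 3 comparisons, in resistant versus sensitive tumors not without mouse 6-4 or 6-5.

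The chromosomal passenger complex corrects wrong attachments at the inner centromere. Its kinase is Aurora B, encoded by AURKB (chromosome 17, 8204733 to 8210600, minus strand). AURKB had 5.70, 4.17, 5.75, 2.28 and 2.62 TPM in resistant tumors, 1.14, 0.620 and 1.57 TPM in sensitive tumors, and 29.96, 26.1, 21.1, 35.3 and 25.4 TPM in vehicle tumors. The 3 groups did not overlap. AURKB rose by 1.26 ± 0.25 (adjusted p = 0.00553) in resistant versus sensitive, fell by 2.41 ± 0.22 (adjusted p = 2.50e-06) in resistant versus vehicle and fell by 3.69 ± 0.25 (adjusted p = 1.92e-07) in sensitive versus vehicle tumors. BIRC5, which encodes survivin, the subunit that takes the complex to the centromere, had 21.4, 14.0, 19.3, 7.62 and 9.10 TPM in resistant tumors, 4.51, 2.35 and 4.39 TPM in sensitive tumors, and 66.3, 55.3, 44.01, 82.4 and 57.6 TPM in vehicle tumors. Its groups were apart as well. BIRC5 rose by 1.67 ± 0.30 (adjusted p = 0.00277) in resistant versus sensitive tumors, the largest rise of the 44 with a pseudocount of 1. With a pseudocount of 0.1 SPC25, SPC24, HJURP and CENPA had larger rises (2.48, 2.36, 2.13 and 2.05). It fell by 1.96 ± 0.26 (adjusted p = 4.24e-05) in resistant versus vehicle and fell by 3.64 ± 0.30 (adjusted p = 9.93e-07) in sensitive versus vehicle tumors. CDCA8 (borealin), whose promoter is shown above, averaged 12.7 ± 2.26 TPM in resistant tumors (SD, n = 5), 5.36 ± 1.02 TPM in sensitive tumors (SD, n = 3) and 44.1 ± 8.38 TPM in vehicle tumors (SD, n = 5) and was called in all 3 comparisons.

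INCENP, the scaffold of the complex that activates Aurora B, did not share this rise. It had 5.86, 5.62, 5.31, 4.03 and 4.94 TPM in resistant tumors, 4.92, 4.91 and 5.21 TPM in sensitive tumors, and 18.1, 18.1, 15.98, 18.9 and 15.7 TPM in vehicle tumors. All treated mice lay below the vehicle mice, and the sensitive mice lay inside the resistant range. INCENP fell by 1.45 ± 0.10 (adjusted p = 1.49e-07) in resistant versus vehicle and fell by 1.53 ± 0.11 (adjusted p = 2.35e-07) in sensitive versus vehicle tumors. Its change in resistant versus sensitive tumors was 0.070 ± 0.11 (adjusted p = 0.897) with a 95% interval of -0.17 to 0.31, not called. Its promoter above holds CHR and CCAAT letters, as does that of CDCA8. ERCC6L (PICH), a helicase on centromere threads in anaphase, stood at 31.9% of vehicle in resistant tumors and 8.74% in sensitive tumors, and was called in all 3 comparisons.

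**Figure D4:**
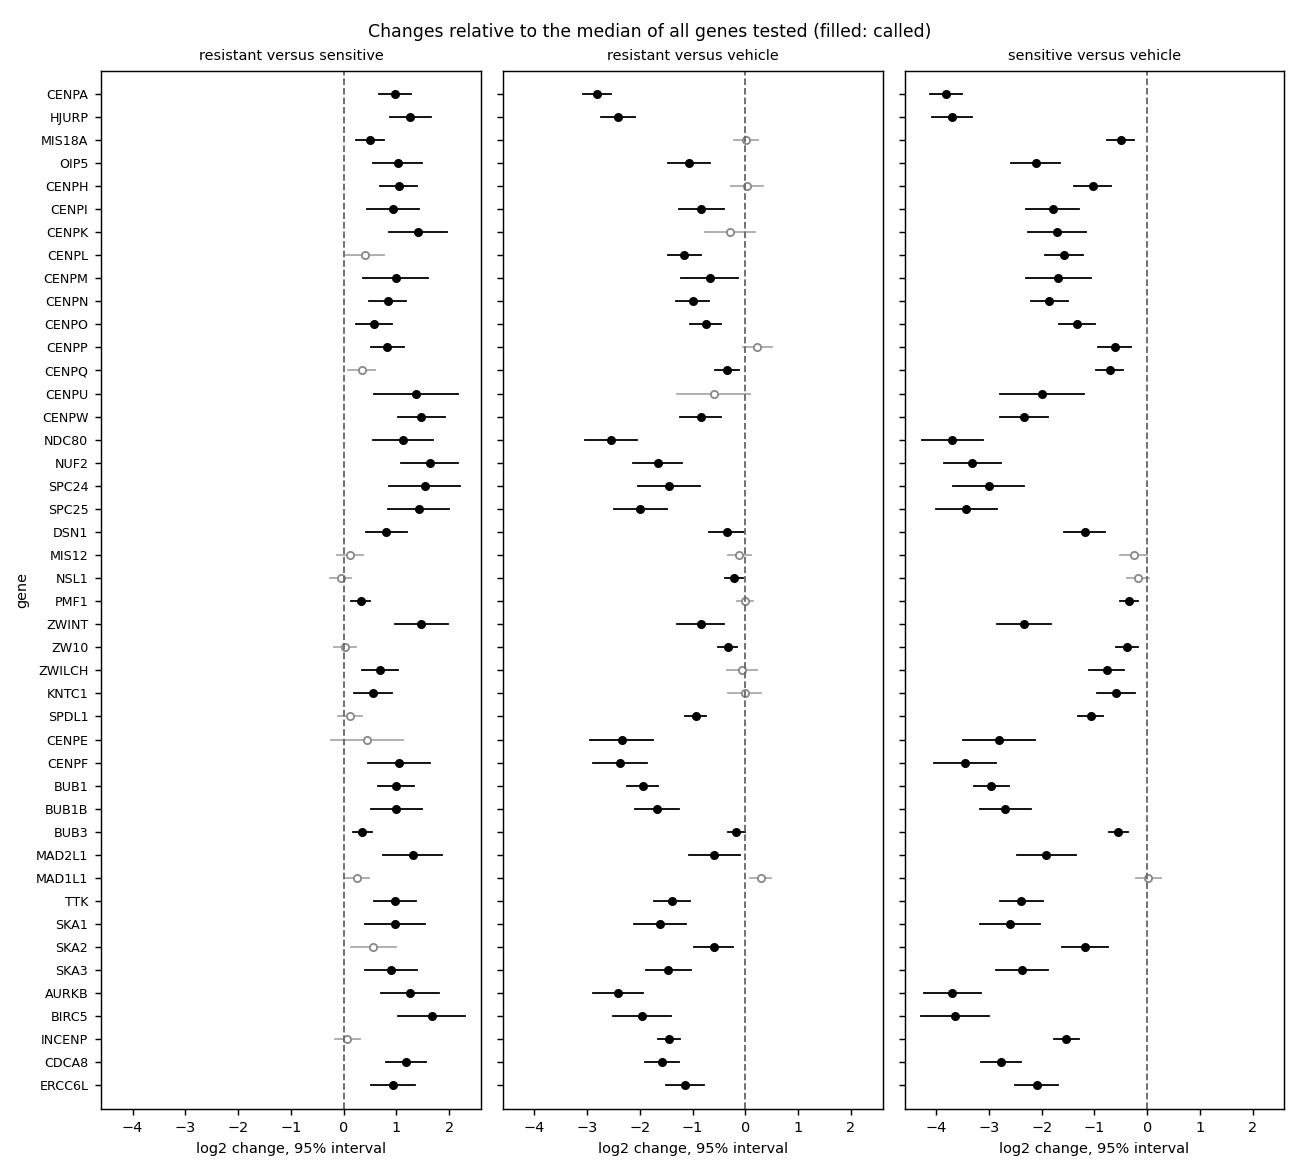
Log2 change of each of the 44 genes (rows, ordered by role) relative to the median change of all genes tested, with its 95% interval, in resistant versus sensitive, resistant versus vehicle and sensitive versus vehicle tumors; filled points were called at an adjusted p under 0.05 as fitted, so the interval of an open point can miss 0. Of the filled points, 34 lie right of 0 in the first panel, 34 left of 0 in the second and 41 left of 0 in the third.

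Set side by side, the calls fell into 5 patterns. The most common held 26 genes that were lower in sensitive versus vehicle, higher in resistant versus sensitive and lower in resistant versus vehicle tumors, among them CENPA, HJURP, the 4 Ndc80 complex genes, BUB1, BUB1B, TTK and AURKB. Another 8 genes (CENPH, CENPK, CENPP, CENPU, KNTC1, MIS18A, PMF1 and ZWILCH) were lower in sensitive versus vehicle and higher in resistant versus sensitive tumors, and were not called in resistant versus vehicle tumors. A missing call does not show that these 8 were at the vehicle level, and the interval of CENPU reached -1.29 to 0.087. In 7 genes (CENPE, CENPL, CENPQ, INCENP, SKA2, SPDL1 and ZW10) both treated groups were lower than vehicle and no difference between resistant and sensitive tumors was called. NSL1 was called only in resistant versus vehicle tumors, and MAD1L1 and MIS12 in no comparison. The share of all genes tested that fell into each pattern was not counted. These patterns are thus not shown to be particular to the kinetochore and checkpoint genes.

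In resistant versus sensitive tumors the median change of the 44 genes was 0.95, and 0 for all genes tested by construction. On the log2 scale resistant and sensitive mice were apart for 27 genes, 26 of them higher and NSL1 lower, and overlapped for 17, against 30.4% of all genes tested apart, 1728 higher and 2551 lower. The count of 34 called genes rested in part on sensitive mouse 6-5, without which it was 19, and without any other mouse it was between 28 and 35. Among the 15 calls lost without mouse 6-5 were NDC80, BUB1B, CENPF and SKA1. A pseudocount of 0.1 in place of 1 gave larger rises for genes near 1 TPM in sensitive tumors, 2.05 for CENPA, 2.13 for HJURP, 2.48 for SPC25, 2.36 for SPC24, 1.79 for NDC80, 1.72 for SKA1, 1.44 for SKA3 and 1.66 for ERCC6L.

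In resistant versus vehicle tumors the median change was -0.89, and the groups were apart for 30 of the 44 genes, all lower, against 27.3% of all genes tested, 2905 lower and 934 higher. With a pseudocount of 1 the largest falls were those of CENPA (-2.82), NDC80 (-2.55) and HJURP (-2.42), and the smallest changes those of PMF1 (-0.0043), MIS18A (0.016) and KNTC1 (-0.017). The order of genes changed under other settings, and scaling weighed on this comparison. Among all genes called, 4570 were lower and 1624 higher as deposited, against 2417 and 2562 under median-of-ratios scaling and 2770 and 2343 under quantile normalization, and under these scalings 29 and 30 of the 44 were lower and MAD1L1 higher. In sensitive versus vehicle tumors, where the median of the 44 was -1.88 and 43 of 44 genes were apart (21.8% of all genes tested, 2307 lower and 756 higher), the count of 41 lower did not move with either scaling, though the split of all genes went to 1059 lower and 792 higher and to 984 and 930, against 1767 and 445 as deposited. For resistant versus sensitive tumors the split of all genes was 1631 lower and 1346 higher as deposited and 1344 and 1726 under median-of-ratios scaling.

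Partners that act together differed in how far their RNA stood from vehicle, and the ratio of their TPM within a mouse shows this mouse by mouse. These 4 pairs were chosen after their values were seen and are given with no test. Per 100 TPM of BUB3, its binding partner BUB1B had 8.11, 6.93, 8.15, 5.21 and 4.84 in resistant tumors, 4.56, 2.38 and 4.25 in sensitive tumors, and 22.3, 20.2, 16.6, 22.4 and 20.5 in vehicle tumors. Per 100 TPM of its anchor MAD1L1, MAD2L1 had 168, 121, 149, 84.7 and 98.5 in resistant tumors, 62.4, 42.4 and 63.2 in sensitive tumors, and 257, 192, 168, 281 and 250.1 in vehicle tumors. Treated mice lay below vehicle mice for BUB1B to BUB3, and for MAD2L1 to MAD1L1 resistant mouse 9-3 just reached the lowest vehicle mouse. Per 100 TPM of its scaffold INCENP, AURKB had 97.3, 74.3, 108, 56.6 and 53.0 in resistant tumors, 23.1, 12.6 and 30.2 in sensitive tumors, and 166, 144, 132, 187 and 162 in vehicle tumors. Per 100 TPM of MIS12, NDC80 had 38.5, 31.5, 39.8, 9.98 and 17.9 in resistant tumors, 8.27, 3.00 and 14.8 in sensitive tumors, and 236, 173, 119, 217 and 142 in vehicle tumors. The AURKB to INCENP ratio kept the 3 groups apart, and the NDC80 to MIS12 ratio overlapped between resistant and sensitive mice only. Both members of a ratio are per length, as TPM is, so the ratios compare transcript numbers, not proteins.

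**Figure D5:**
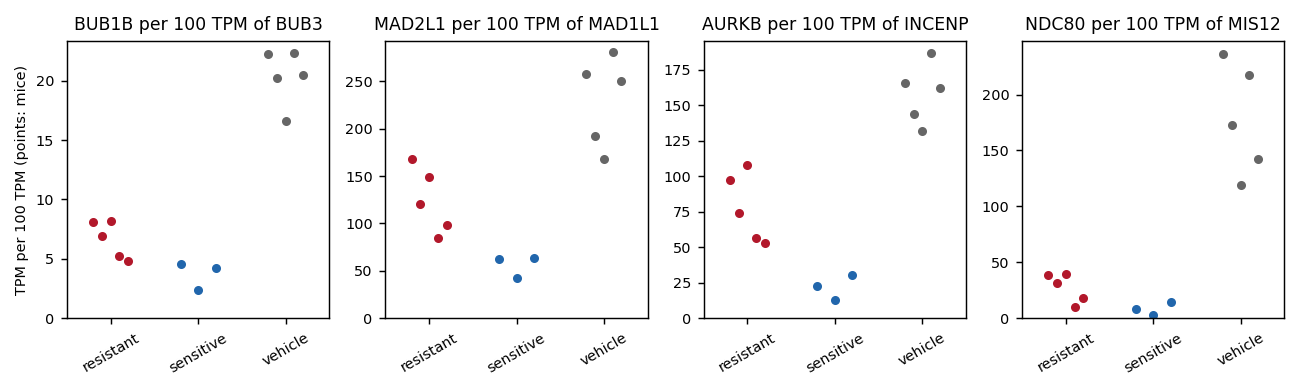
TPM of BUB1B, MAD2L1, AURKB and NDC80 per 100 TPM of a partner gene in the same mouse (points) in resistant, sensitive and vehicle tumors, each panel on its own axis from 0. Sensitive mice have the lowest median in each panel, 4.25, 62.4, 23.1 and 8.27 TPM per 100 TPM, resistant mice have medians of 6.93, 121, 74.3 and 31.5, and vehicle mice of 20.5, 250.1, 162 and 173.

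Within each group, 1 mouse was the lowest for many of the 44 genes. How many of all genes tested were lowest in each mouse was not counted, so this is not shown to be particular to the 44. Resistant mouse 9-8 was the lowest of its group for 39 of the 44 genes, with a mean log2(TPM + 1) of 2.75 over the 44, against 3.08 to 3.51 in the other 4 resistant mice. Sensitive mouse 6-5 was the lowest of its group for 33 genes, with a mean of 2.18 against 2.51 and 2.55. Vehicle mouse 1-5 was lowest for 28 genes and mouse 1-6 highest for 29, with means of 4.18 and 4.59. The lowest resistant mouse was still above the highest sensitive mouse in this mean, and the highest resistant mouse below the lowest vehicle mouse. MKI67, the gene of the division marker Ki-67, had 8.47, 7.68, 8.91, 2.36 and 3.79 TPM in resistant tumors, 1.12, 0.970 and 1.99 TPM in sensitive tumors, and 58.2, 46.1, 36.2, 46.5 and 42.1 TPM in vehicle tumors. It was lowest in the same mouse of each group, 9-8, 6-5 and 1-5, and so was TOP2A, another gene of dividing cells. PCNA, also listed for context, was lowest in mice 9-8 and 6-5, but among vehicle mice in 1-4 (93.3 TPM, against 111 TPM in 1-5). In resistant and sensitive tumors MKI67 stood at 13.6% and 2.97% of vehicle, TOP2A at 14.5% and 4.67%, and PCNA at 62.0% and 33.3%.

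Other kinetochore and checkpoint genes, which were not among the 44, gave a further view of the pathway. Of 24 listed, 23 were found and tested. In resistant versus sensitive tumors 11 were higher and 1 lower, against 9.56% higher and 11.6% lower among all genes tested. In resistant versus vehicle tumors 16 were lower and 1 higher, against 32.5% and 11.5% of all genes. In sensitive versus vehicle tumors 16 were lower and 0 higher, against 12.6% and 3.16% of all genes. Their median changes in these comparisons were 0.22, -0.64 and -1.11. How these calls move under the alternative settings was not examined. PLK1, a kinase of mitotic entry and of kinetochores, KIF2C, a microtubule depolymerase, and CDC20, the target of the checkpoint, fell most in sensitive versus vehicle tumors, with changes of -4.33, -3.51 and -3.43. KNL1, the third arm of the KMN network and the platform for BUB1, fell by 2.52 ± 0.20 (adjusted p = 6.02e-07) in sensitive versus vehicle tumors and rose by 0.81 ± 0.20 (adjusted p = 0.0163) in resistant versus sensitive tumors. CENPC and CENPT, which tie the network to the outer layer, were not called in sensitive versus vehicle tumors (-0.22 ± 0.13 (adjusted p = 0.140) for CENPC, 0.22 ± 0.13 (adjusted p = 0.476) for CENPT). The genes that went against the rest were CLASP1, a microtubule rescue factor, lower in resistant versus sensitive tumors (-0.37 ± 0.11 (adjusted p = 0.0202)), and BOD1, an inhibitor of a phosphatase at kinetochores, higher in resistant versus vehicle tumors (0.54 ± 0.11 (adjusted p = 0.0109)).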

How the data were processed

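RNA of 13 ZR751 tumors was sequenced as 26 libraries, A and B of each mouse, at a step that no source used here gives. The deposited table holds TPM made by the authors. Named in the submitters' processing notes are STAR, HTSeq, RSEM and FastQC and the builds GRCh38 and GRCm38, without version or role; the handling of mouse reads was not given in the sources used here. One entry with no gene name, at 1.49 to 5.51 TPM, was left out.

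The mouse was the replicate: log2(TPM + 1) of its 2 libraries was averaged, and 14079 genes with a mean of at least 1 TPM in at least 3 mice were tested in 1 limma model with the trend option over all 3 groups (limma 3.58.1, R 4.3.3), two-sided, with Benjamini-Hochberg adjustment over all genes of a comparison and a threshold of 0.05. Log2 changes and 95% intervals are relative to the median of all genes tested; SEs and adjusted p are as fitted. The model was also run on simulated data with each gene drawn on its own. That run does not bear on counts over genes that move together between mice.

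The 44 genes and the lists were chosen with earlier results of these data known. Named with a value in every mouse are 8 defining genes, the most and least changed gene of each role in sensitive versus vehicle tumors and those not called there. Named in the other comparisons are the 3 largest and smallest changes and those that went against most. Other genes were named after their values were seen. Gene positions are from GENCODE 29, promoters from RefSeq; 16 of the 44 genes overlap another protein-coding gene. Alternatives were other pseudocounts, filters, scalings, libraries and model forms, and leaving out each mouse.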

Additional observations from a re-analysis of the deposited data

Results flagged for a closer look

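Each of the 44 genes was checked in the resistant and the vehicle mice, 88 groups of 5, for a mouse far from the other 4 (Dixon's test), which chance does in about 1 group of 20. CENPE had 3.29 TPM in resistant mouse 9-7, against 0.645 to 1.32 TPM in the other resistant mice. KNTC1 had 9.67 TPM in resistant mouse 9-8, against 15.6 to 16.9 TPM in the other resistant mice. CENPN, a reader of the CENP-A nucleosome, had 20.5 TPM in vehicle mouse 1-6, against 15.1 to 15.7 TPM in the other vehicle mice.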

How the results depend on the processing

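The counts of called genes among the 44 were 28 to 35 in resistant versus sensitive tumors under every alternative run except leaving out mouse 6-5, and leaving out each mouse gave 19 to 35. In resistant versus vehicle tumors the counts lay between 30 and 35, and in sensitive versus vehicle tumors between 39 and 42. Libraries A and B belong together by mouse, and the letters showed no shift shared between groups. Over genes, mean A minus B differences correlated at -0.051 (resistant and sensitive), -0.048 (resistant and vehicle) and -0.0040 (sensitive and vehicle). With the letter as a replicate block the counts were 35, 35 and 41. Some alternatives added calls. NSL1 was lower in sensitive versus vehicle tumors without mouse 1-5. In resistant versus sensitive tumors SKA2 was higher without mouse 1-5 and in the fits on 26 libraries, and CENPQ with library B alone. In resistant versus vehicle tumors CENPU was lower without mouse 9-7 and in the fits on 26 libraries, and PMF1 without mouse 9-6. A pseudocount of 0.1 gave -3.22 in place of -2.10 for ERCC6L in sensitive versus vehicle tumors, and no filter gave -0.28 in place of -0.17 for BUB3 in resistant versus vehicle tumors. Over all alternatives the size of other large falls in sensitive versus vehicle tumors moved as well. CENPA ran from -5.40 to -3.61 (-3.81 as reported) and HJURP from -4.91 to -3.54 (-3.70 as reported). SPC25 ran from -4.87 to -3.31 (-3.43 as reported) and SKA1 from -3.79 to -2.48 (-2.61 as reported).

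Sign changes occurred only in changes near 0 that were not called as reported. With no filter on low values they were -0.041 for MAD1L1 in sensitive versus vehicle tumors, -0.014 for ZW10 in resistant versus sensitive, and -0.088 for MIS18A and -0.078 for CENPH in resistant versus vehicle tumors. With library A alone they were -0.055 for ZW10 and -0.046 for INCENP in resistant versus sensitive tumors. With library B alone they were -0.011 for MAD1L1 in sensitive versus vehicle tumors, and -0.015 for MIS18A, 0.018 for PMF1 and 0.0088 for KNTC1 in resistant versus vehicle tumors. Also in resistant versus vehicle tumors, PMF1 gave 0.0071 with a pseudocount of 0.1, 0.0084 under median-of-ratios scaling and 0.015 with a filter at 5 TPM, KNTC1 gave 0.0018 with that filter and 0.039 under quantile normalization, and ZWILCH gave 0.0013 under quantile normalization. Leaving out each mouse gave -0.024 to 0.086 for MAD1L1 in sensitive versus vehicle tumors and -0.048 to 0.087 for ZW10 in resistant versus sensitive tumors. In resistant versus vehicle tumors it gave -0.059 to 0.093 for MIS18A, -0.026 to 0.14 for CENPH, -0.054 to 0.030 for PMF1, -0.13 to 0.054 for ZWILCH and -0.064 to 0.12 for KNTC1. The cause was not tested.

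Over all genes, the counts called moved by more than 1.5 times without a single mouse. In sensitive versus vehicle tumors 802 were lower and 99 higher without mouse 6-5, 964 and 110 without 6-6, and 288 higher without 1-9, against 1767 lower and 445 higher. In resistant versus sensitive tumors 690 were lower and 890 higher without mouse 6-4, and 799 and 675 without 6-5, against 1631 and 1346. Library A alone gave 237 higher in sensitive versus vehicle tumors and 1081 lower in resistant versus sensitive tumors, and the compared groups alone gave 232 higher in sensitive versus vehicle tumors.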
